A study of Homo sapiens with 6 samples.

Results

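The genes described here encode the 5 creatine kinases (CKM, CKB, CKMT2, CKMT1A and CKMT1B), both enzymes that make creatine (GATM and GAMT) and the creatine transporter (SLC6A8). They were listed by symbol for their known roles, with earlier results of these data already known, and all 8 were found among the 38557 genes listed for each library. The libraries came from cardiomyocytes derived from WTC11, a human line of induced pluripotent stem cells that is widely used. Of the 6 cultures, 3 had been kept in RPMI plus B27, a basal medium with a serum-free supplement, and 3 in DMEM plus fatty acids, with replicates numbered 1 to 3 in each. All cultures were wild type and came from the same line, and neither the amounts in the media nor the time in them was given in the sources used here.

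Creatine kinases move the high-energy phosphate of ATP onto creatine and back. In heart muscle, sarcomeric mitochondrial creatine kinase charges creatine beside the inner membrane, and cytosolic muscle creatine kinase discharges it where myosin and ion pumps use ATP. Most cardiac creatine is taken up from the blood by the transporter, while its synthesis is best known from kidney and liver. The switch from the brain-type to the muscle-type cytosolic subunit is a familiar feature of striated muscle development.

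The libraries held 23232324 to 31035389 gene counts, and a count of 0 allowed up to 0.0967 to 0.129 CPM (a gene's count relative to its library's total, with totals scaled by the trimmed mean of M-values, TMM). All 10 cardiomyocyte markers were tested, and their summed level was 24650 to 31130 CPM in RPMI plus B27 and 20270 to 26470 CPM in DMEM plus fatty acids, so the labelled cell type's markers were abundant in every library. The smallest p among them was that of ACTN2, a Z-disc protein (log2 fold change -1.0 ± 0.30, adjusted p 0.155 by edgeR's quasi-likelihood test). Of the 8 fibroblast and stromal markers, 5 passed the test downward (among them COL1A1, DCN, FBN1 and POSTN) and all 8 fitted lower in DMEM plus fatty acids, where their summed level was 727.6 to 1935 CPM against 4308 to 8264 CPM. Of 6 smooth muscle markers 1 passed (LMOD1, downward), with summed levels of 356.6 to 1176 CPM against 1604 to 2040 CPM. Over all 16107 tested genes, 1.07% passed this test downward and 0.292% upward, and 7888 fitted lower. Epicardial markers summed to 42.7 to 87.5 CPM against 104.7 to 291.7 CPM, with 0 of 4 tested members passing. Endothelial markers summed to 114.8 to 463.5 CPM against 29.7 to 239.5 CPM, and 0 of 2 tested members passed. That sum was almost all KDR (27.5, 143 and 239 CPM in RPMI plus B27 and 114.5, 400 and 463 CPM in DMEM plus fatty acids). TEK was lower in every DMEM plus fatty acids library and was at most 1.13 CPM. CDH5 had 11, 8 and 1 counts in RPMI plus B27 and ERG 8, 2 and 1, against 0 in every DMEM plus fatty acids library. Their single counts in RPMI plus B27 replicate 3 lie under the level that a count of 0 allows. PECAM1 and VWF had at most 5 counts in a library and overlapped between the media. The smallest p in each of the lists without a call belonged to TBX18 (epicardial), TEK (endothelial), DCX (neuronal), ACTN3 (skeletal muscle), DPPA4 (pluripotent cell) and AFP (hepatic). Neuronal, pluripotent cell and hepatic endoderm markers reached at most 36.3, 2.86 and 112.7 CPM in sum, and 0 of 4, 0 of 3 and 0 of 3 tested members passed. Skeletal muscle markers summed to at most 8.25 CPM, with 3 of 6 at 0 in every library and 0 of 1 passing. With the replicate number as a block, edgeR called 7 of the 8 fibroblast markers and 2 of 6 smooth muscle markers downward. It also called 2 of 4 epicardial (TBX18 and KRT19), 1 of 3 hepatic (AFP) and 2 of 10 cardiomyocyte markers (MYH7 and ACTN2) downward. Upward it called 1 of 2 endothelial markers (KDR). In the unblocked fit 5 of the 10 cardiomyocyte markers were higher and 5 lower, with a median log2 fold change of -0.08. MYH6 was higher without overlap, at 3504, 5119 and 5653 CPM in RPMI plus B27 and 6760, 10620 and 8578 CPM in DMEM plus fatty acids. Its log2 fold change was 0.86 ± 0.27, and it passed in neither fit (edgeR's quasi-likelihood test, adjusted p 0.166 unblocked and 0.0797 blocked). Over all tested genes the blocked fit called 4.78%, with 3.42% downward and 1.36% upward. The choice to name KDR, CDH5, ERG, PECAM1, VWF, KRT19, MYH6 and MYH7 was made with their values in view. These shifts in marker transcripts accompany every comparison below, and their part in the results was not tested. In such bulk samples, fewer cells of a type and less RNA per cell cannot be told apart.

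In DMEM plus fatty acids GATM fell, and CKM was higher in all 3 libraries than in any RPMI plus B27 library, while CKMT2 and GAMT had fitted changes close to 0. In edgeR's quasi-likelihood test, with Benjamini-Hochberg adjustment over 16107 genes and a threshold of 0.05, 1 of the 8 genes passed, GATM. In the same test 1.36% of all genes passed, 0.292% upward and 1.07% downward. In the fit blocked on replicate number 2 of the 8 passed, GATM downward and CKM upward, where 4.78% of all genes did (1.36% upward and 3.42% downward). DESeq2 called 3 of the 8 (GATM, CKM and CKMT1B) and 7.71% of all genes. The CPM of the 2 media did not overlap for 5 of the 8 genes, 3 higher (CKM, CKMT1A, CKMT1B) and 2 lower (GATM, SLC6A8), against 25.6% of all tested genes (12.8% in each direction). All 8 genes passed the filter on low counts. Their median log2 fold change was 0.13, beside 0.01 over all tested genes, and the individual changes ran from -1.54 to 1.54.

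**Figure D1:**
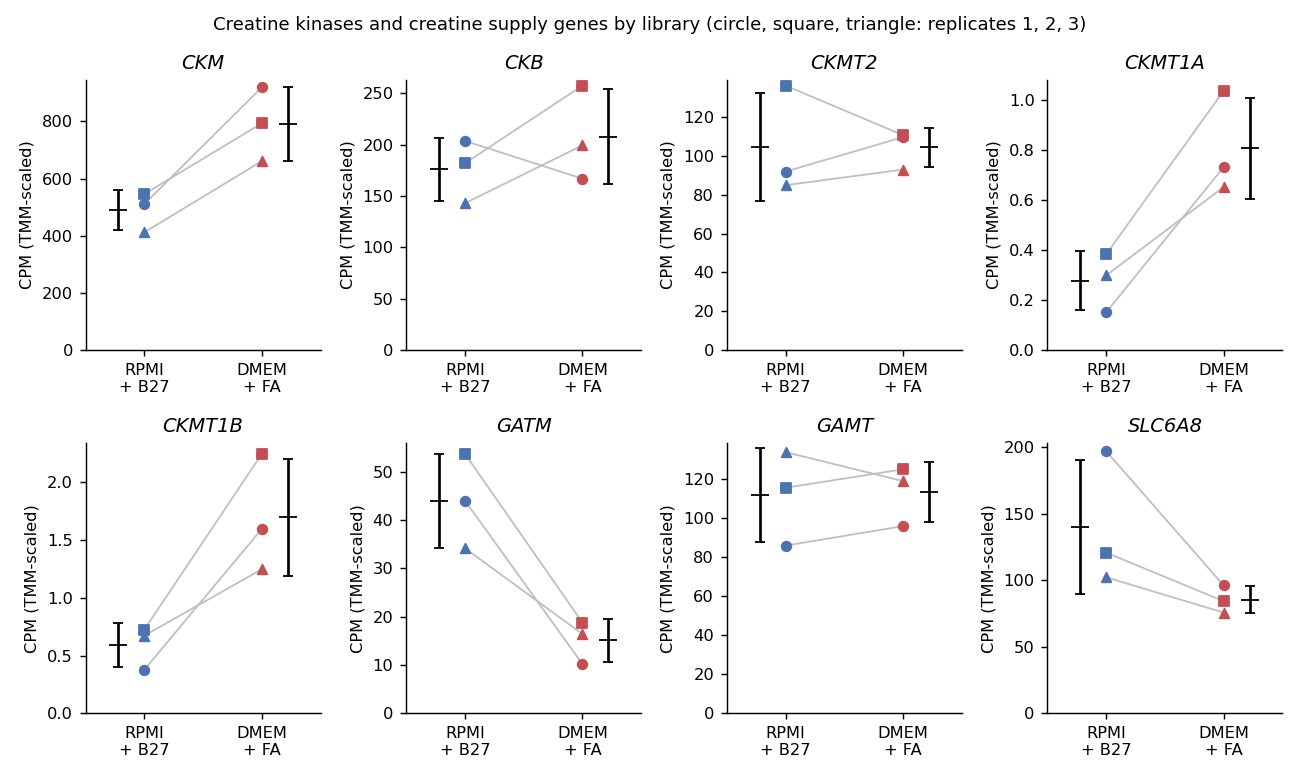
TMM-scaled CPM of each gene in each library (y axis from 0), with replicates 1, 2 and 3 as circle, square and triangle, grey lines joining equal replicate numbers, and bars for mean ± SD of 3 libraries. FA stands for fatty acids. CKM, CKMT1A and CKMT1B lie higher and GATM and SLC6A8 lower in all 3 DMEM plus fatty acids libraries, while CKB, CKMT2 and GAMT overlap.

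CKM encodes the cytosolic muscle-type subunit, which is anchored in part at the M-band of the sarcomere, and it was the most abundant of the 8 transcripts per length in both media. The gene lies at chr19:45306414-45322977 on the minus strand (GENCODE v29, GRCh38). Its levels were 511, 546 and 412 CPM in RPMI plus B27 (replicates 1 to 3) and 919, 793 and 661 CPM in DMEM plus fatty acids. Every DMEM plus fatty acids library lay above every RPMI plus B27 library, and replicate 3 was the lowest in both media. The fitted log2 fold change was 0.69 ± 0.18 (SE), or 1.62-fold, with an adjusted p of 0.112 by edgeR's quasi-likelihood test and 0.0438 with the replicate block. With DESeq2 the adjusted p was 0.0133.

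The cytosolic brain-type subunit, encoded by CKB at chr14:103519659-103523111 on the minus strand, is the form of embryonic heart, brain and smooth muscle. It measured 204, 182 and 143 CPM in RPMI plus B27 and 167, 258 and 199 CPM in DMEM plus fatty acids. The ranges overlapped, since replicate 1 was lower and replicates 2 and 3 were higher in DMEM plus fatty acids than in RPMI plus B27. Its log2 fold change of 0.24 ± 0.20 did not pass (adjusted p 0.576 by edgeR's quasi-likelihood test), with a 95% interval from -0.23 to 0.71. Smooth muscle markers, whose cells use this subunit, were lower in DMEM plus fatty acids (median log2 fold change -1.42), and their part in the CKB level was not tested.

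The coding sequences of CKM and CKB have the same length, 1143 bases, and were identical at 902 of these (78.9%). No window of 50 bases in either transcript occurred in the transcripts of another gene, so reads of the 2 subunits can be separated. The 250 bases before the start given by RefSeq (GRCh38.p14) are shown because the 2 genes provide alternative subunits of 1 enzyme and differ in what lies before their starts. Capitals mark every match to the searched motifs on either strand, which were TATAAA (the TATA box), its variant TATATA, the E-box CANNTG, the CCAAT box, the GC box GGGCGG, the oestrogen-related receptor half-site AAGGTCA, the hypoxia response core ACGTG, the amino acid response core TGATGNAA, MEF2 and the CArG box, with overlaps allowed. The CKM window is chr19:45322876-45323125 and the CKB window chr14:103522831-103523080, both on the minus strand. The 5′ ends in GENCODE v29 lie further upstream than these RefSeq starts. By that annotation the CKB window lies wholly within its gene and the CKM window partly, so distances below count from the RefSeq starts only.
CKM: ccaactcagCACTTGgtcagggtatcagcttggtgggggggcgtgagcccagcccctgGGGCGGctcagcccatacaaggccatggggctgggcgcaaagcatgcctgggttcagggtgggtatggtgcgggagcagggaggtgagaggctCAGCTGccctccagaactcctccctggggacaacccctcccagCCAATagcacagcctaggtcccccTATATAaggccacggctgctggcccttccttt
CKB: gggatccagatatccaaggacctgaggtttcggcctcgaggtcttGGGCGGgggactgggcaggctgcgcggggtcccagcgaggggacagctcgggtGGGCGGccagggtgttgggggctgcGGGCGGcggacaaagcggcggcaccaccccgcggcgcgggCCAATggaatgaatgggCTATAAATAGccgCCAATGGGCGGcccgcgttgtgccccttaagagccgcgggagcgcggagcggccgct

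CKM held 2 E-boxes, 1 CCAAT box, 1 GC box and TATATA 32 bases before the start. CKB held no E-box, 2 CCAAT boxes, 4 GC boxes and a match to MEF2, CTATAAATAG, which overlaps its TATAAA 69 bases before the start. Over 35116 such windows of RefSeq genes, an E-box was found in 61.8%, CCAAT in 32.0%, GGGCGG in 42.6%, TATAAA in 10.7%, TATATA in 3.73% and MEF2 in 2.80%. Neither window had a match to AAGGTCA (3.44% of windows), ACGTG (18.5%), TGATGNAA (3.14%) or the CArG box (1.16%). A match describes the letters only.

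The share of CKM among CKM and CKB counts was 71.5%, 75.0% and 74.2% in RPMI plus B27 and 84.6%, 75.5% and 76.8% in DMEM plus fatty acids. The shares did not overlap between media, although replicate 2 differed by only 0.490 percentage points. The means were 73.6% ± 1.84 and 79.0% ± 4.94 (SD, n = 3 each), and the difference of 5.41 points gave an exact two-sided permutation p of 0.1, the smallest that 3 against 3 libraries allow. The difference rested largely on DMEM plus fatty acids replicate 1 and was 2.58 points without it. In that library CKM was the highest of all 6 and CKB was lower than in the other 2 DMEM plus fatty acids libraries. Counting error was small beside this spread, with the 95% Wilson interval in that library at 84.2% to 85.1%.

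**Figure D2:**
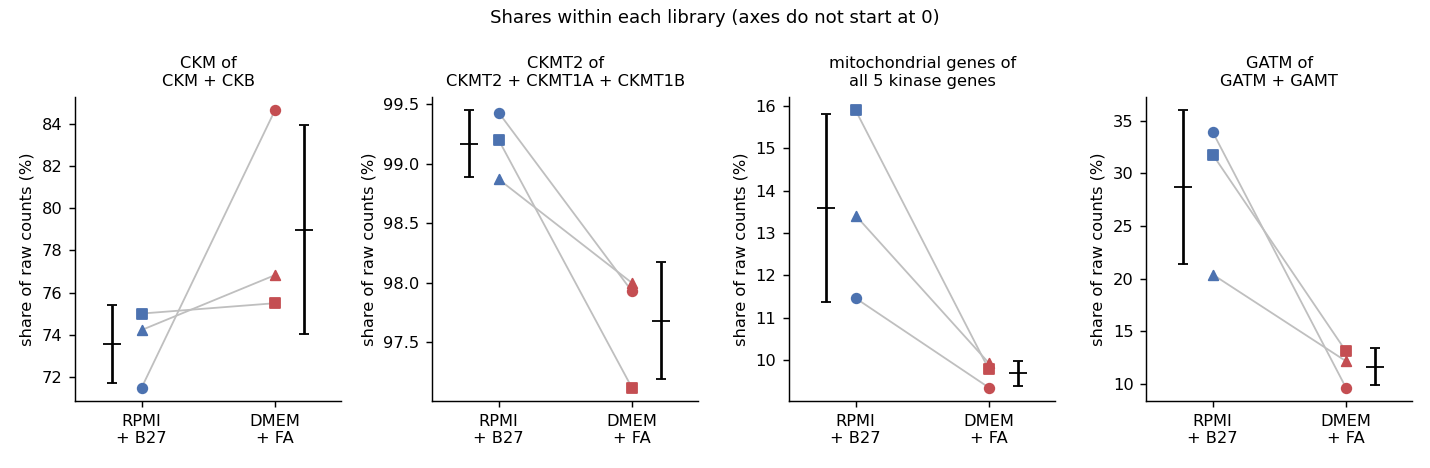
Shares of raw counts within each library in percent (y axes do not start at 0), with symbols, lines and mean ± SD as in the plot of levels by library. The CKM share differs most in replicate 1, where it is 84.6% in DMEM plus fatty acids, and the mitochondrial and GATM shares are lower in all 3 DMEM plus fatty acids libraries.

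The mitochondrial kinases sit in the intermembrane space, where they draw ATP from the adenine nucleotide carriers. CKMT2, the sarcomeric form of heart and skeletal muscle, lies at chr5:81233285-81266397 on the plus strand. It measured 92.0, 136 and 84.9 CPM in RPMI plus B27 and 110, 111 and 93.0 CPM in DMEM plus fatty acids. RPMI plus B27 replicate 2 was the highest library, and the other 5 lay between 84.9 and 111 CPM. The means were 104.4 ± 27.9 and 104.5 ± 9.95 CPM (SD, n = 3 each), and the log2 fold change had an SE of 0.19 and a 95% interval from -0.45 to 0.45 (adjusted p 0.999 by edgeR's quasi-likelihood test). A change of up to about that size in either direction is therefore not distinguished from none.

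CKMT1A and CKMT1B encode the ubiquitous mitochondrial form, which is best known from brain and epithelia. They are a duplicated pair on the plus strand of chromosome 15, CKMT1B at chr15:43593054-43604901 and CKMT1A at chr15:43692886-43699222. Their coding sequences, 1251 bases each, were identical at 1249 positions. The 2 differences, G1056A and C1086T (CKMT1A base first, CKMT1B base last, counted from the first base of the start codon), lie in exon 8 of the CKMT1A transcript at chr15:43698685 and chr15:43698715 and in exon 9 of the CKMT1B transcript at chr15:43598871 and chr15:43598901. They are shown with their surroundings because a read wholly within the coding sequence can be given to one of the copies only if it covers such a base, which is printed in capitals.
CKMT1A, bases 1041 to 1071: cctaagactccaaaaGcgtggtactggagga
CKMT1B, bases 1041 to 1071: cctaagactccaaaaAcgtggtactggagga
CKMT1A, bases 1071 to 1101: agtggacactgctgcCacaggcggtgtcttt
CKMT1B, bases 1071 to 1101: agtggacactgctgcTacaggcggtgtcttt

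Over the whole transcripts, 18.3% of 50-base windows of CKMT1A and 10.2% of those of CKMT1B were found in no other gene, and 25.3% and 17.2% of 150-base windows. The authors' files keep reads without a unique alignment in a row of their own, so reads that match both copies are in neither count, the level of each is uncertain, and the read length was not given in the sources used here. CKMT1A had 4, 9 and 8 counts in RPMI plus B27 and 17, 31 and 22 in DMEM plus fatty acids. CKMT1B had 10, 17 and 18 against 37, 67 and 42. Both genes were rare and higher in every DMEM plus fatty acids library.

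Summed, the pair measured 0.528, 1.11 and 0.970 CPM in RPMI plus B27 and 2.33, 3.28 and 1.90 CPM in DMEM plus fatty acids. The media did not overlap, and the lowest DMEM plus fatty acids library stood above the highest RPMI plus B27 library. The log2 fold change of the sum was 1.53 ± 0.39 (2.88-fold), with an adjusted p of 0.109 by edgeR's quasi-likelihood test and 0.0609 with the replicate block, so it did not pass. Taken alone, CKMT1A had 1.54 ± 0.44 (adjusted p 0.141) and CKMT1B 1.52 ± 0.39 (adjusted p 0.115). CKMT1B held 65.4% to 71.4% of the counts of the pair in each of the 6 libraries. With 14 to 98 counts per library behind these shares, the 95% Wilson intervals all overlapped.

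CKMT2 made up nearly all of the uniquely assigned mitochondrial creatine kinase counts in both media. Its share was 99.4%, 99.2% and 98.9% in RPMI plus B27 and 97.9%, 97.1% and 98.0% in DMEM plus fatty acids. The shares did not overlap, with a difference of -1.48 points and an exact two-sided permutation p of 0.1. How many reads of the ubiquitous form were lost between its near-identical copies was not measured, so these shares set no upper limit on it. CKMT1B also shares 63 exon bases with STRC on the opposite strand, which had 0 to 14 counts in a library, and the strand setting of the counting was not given in the sources used here.

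Among all 5 kinases, mitochondrial genes held 11.5%, 15.9% and 13.4% of counts in RPMI plus B27 and 9.35%, 9.78% and 9.93% in DMEM plus fatty acids. All 3 DMEM plus fatty acids libraries lay lower, and they were closer together than the RPMI plus B27 libraries. The means were 13.6% ± 2.22 and 9.69% ± 0.300 (SD, n = 3 each), a difference of -3.90 points with an exact two-sided permutation p of 0.1. With CKMT2 at an equal mean level, the lower share went with the higher CKM count. The summed level of the 5 kinases was 807, 864.9 and 640.6 CPM in RPMI plus B27 and 1198, 1165 and 955.5 CPM in DMEM plus fatty acids, again without overlap (exact two-sided permutation p 0.1).

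Of the creatine synthesis genes, GATM fell and GAMT had a fitted change near 0. GATM encodes arginine:glycine amidinotransferase, the mitochondrial enzyme of the first step, which makes guanidinoacetate from arginine and glycine. It lies at chr15:45361124-45402327 on the minus strand and measured 44.1, 53.7 and 34.2 CPM in RPMI plus B27 and 10.2, 18.8 and 16.4 CPM in DMEM plus fatty acids. The groups were well apart, since the lowest RPMI plus B27 library was above the highest DMEM plus fatty acids library, and the fall was seen for each replicate number. Mean levels were 44.0 ± 9.77 and 15.1 ± 4.44 CPM (SD, n = 3 each), the log2 fold change was -1.54 ± 0.26, or 2.90-fold lower, and the adjusted p was 0.0469 by edgeR's quasi-likelihood test. GATM ranked 186 of 16107 genes by p, and with an adjusted p of 0.0563 to 0.134 it did not pass in any of the 6 fits that left out 1 library, although its direction held (log2 fold change -1.72 to -1.32). Over all tested genes 3 to 131 passed in those 6 fits, against 219 as reported. GATM also missed the threshold when libraries were scaled by total counts (adjusted p 0.0631) and when genes needed at least 10 counts in every library (0.0557). It passed with the replicate block (adjusted p 0.0223), without a filter on low counts (0.00921, both by edgeR's quasi-likelihood test) and by the DESeq2 Wald test (1.03e-05). GATM overlaps an antisense gene, AC025580.3, over 485 exon bases, and without a stated strand setting their reads cannot be told apart there. GENCODE v29 places the 5′ end of GATM further upstream than the RefSeq start used for the sequence printed next.

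The 250 bases before the RefSeq start of GATM (chr15:45378545-45378794, minus strand) and of SLC6A8 (chrX:153687676-153687925, plus strand) are printed because these 2 genes were lower in every DMEM plus fatty acids library. For SLC6A8 the 5′ end in GENCODE v29 lies further downstream than the RefSeq start. Capitals mark matches to the same motifs.
GATM: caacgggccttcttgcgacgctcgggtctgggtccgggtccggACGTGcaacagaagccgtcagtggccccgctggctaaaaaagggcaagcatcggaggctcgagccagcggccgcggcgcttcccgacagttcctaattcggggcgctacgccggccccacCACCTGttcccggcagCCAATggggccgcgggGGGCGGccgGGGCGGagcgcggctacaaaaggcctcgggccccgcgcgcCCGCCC
SLC6A8: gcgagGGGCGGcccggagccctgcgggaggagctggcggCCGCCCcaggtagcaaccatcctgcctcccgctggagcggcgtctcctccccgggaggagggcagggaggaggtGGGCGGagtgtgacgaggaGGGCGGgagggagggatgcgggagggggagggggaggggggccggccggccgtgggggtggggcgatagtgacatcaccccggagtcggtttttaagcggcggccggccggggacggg

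GATM held 3 GC boxes, a CCAAT box, an E-box and 1 match to ACGTG 207 bases before the start. SLC6A8 held 4 GC boxes and no other match. GC content was 72.8% in the GATM window and 76.4% in that of SLC6A8, beside 64.4% for CKM and 70.8% for CKB. Neither the GATM nor the SLC6A8 window had TATAAA or TATATA.

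GAMT encodes guanidinoacetate methyltransferase, which completes creatine with a methyl group from S-adenosylmethionine, and lies at chr19:1397026-1401570 on the minus strand. It measured 85.7, 115 and 133.5 CPM in RPMI plus B27 and 95.7, 125 and 119 CPM in DMEM plus fatty acids. The ranges overlapped almost entirely, and replicate 1 was the lowest in both media. Its log2 fold change was 0.02 ± 0.19, with a 95% interval from -0.42 to 0.46 (adjusted p 0.966 by edgeR's quasi-likelihood test). GATM counts as a share of both synthesis genes were 33.9%, 31.8% and 20.4% in RPMI plus B27 and 9.63%, 13.1% and 12.2% in DMEM plus fatty acids. The shares did not overlap, the difference was -17.1 points, and the exact two-sided permutation p was 0.1.

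The 5 exact tests of the shares and of the summed kinase level each gave 0.1, which is also 0.1 after Benjamini-Hochberg adjustment over the 5. Within the 3 pairs of equal replicate number each of the 5 quantities moved the same way in 3 of 3 pairs. The exact sign-flip p was 0.25, the smallest that 3 pairs allow. Because none of the 5 overlapped between the media, any pairing of the libraries would give these results, so they add no support.

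SLC6A8, the sodium- and chloride-dependent transporter that brings creatine into the cell, lies at chrX:153688099-153696593 on the plus strand. Its levels were 197, 121 and 102 CPM in RPMI plus B27 and 96.0, 84.2 and 75.7 CPM in DMEM plus fatty acids. RPMI plus B27 replicate 1 stood well above the other libraries, while RPMI plus B27 replicate 3 and DMEM plus fatty acids replicate 1 were close to each other without overlap between the media. The log2 fold change was -0.71 ± 0.25 with an adjusted p of 0.196 by edgeR's quasi-likelihood test and 0.0591 with the replicate block, so the gene did not pass. Without RPMI plus B27 replicate 1 the log2 fold change was -0.39 (adjusted p 0.284 by edgeR's quasi-likelihood test). The gene has partial copies elsewhere in the genome, but 97.8% of its 100-base windows were found in no other gene, and the copy SLC6A10P had at most 2 counts in a library. SLC6A8 shares 22 exon bases with PNCK on the opposite strand.

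**Figure D3:**
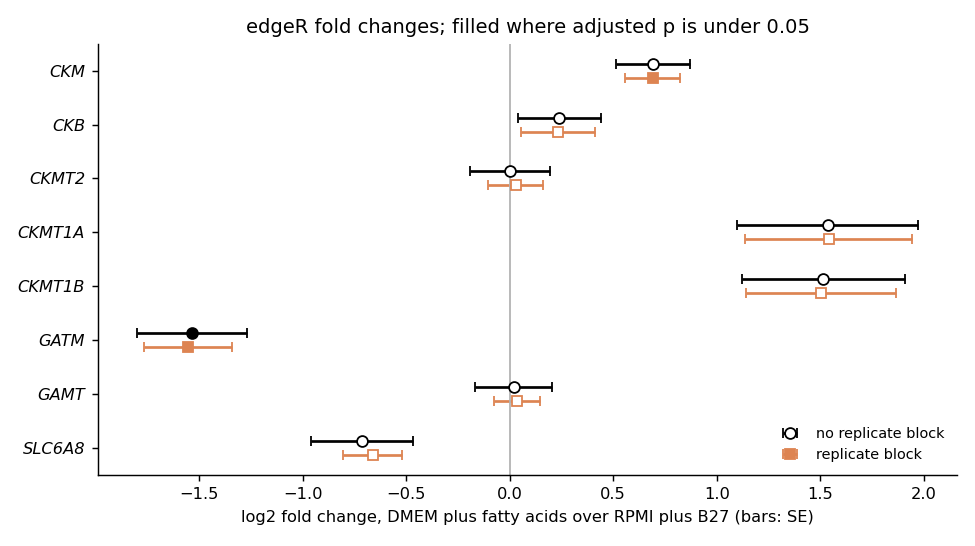
log2 fold changes (x axis, positive where DMEM plus fatty acids is higher) with SE from edgeR without (circles) and with (squares) the replicate block, filled where the adjusted p is under 0.05. GATM is filled in both fits, CKM only with the block.

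Levels of different genes were compared as CPM per kilobase of transcript. In RPMI plus B27 the order was CKM (295 ± 41.9), CKB (103 ± 18.0), GAMT (99.5 ± 21.5), CKMT2 (63.8 ± 17.0), SLC6A8 (37.2 ± 13.3), GATM (16.9 ± 3.76), CKMT1B (0.332 ± 0.105) and CKMT1A (0.145 ± 0.0615, SD, n = 3). Across the libraries of that medium the range of CKB overlapped that of GAMT, GAMT that of CKMT2 and CKMT2 that of SLC6A8. The ranges of SLC6A8 and GATM did not overlap. Compared within each library, GAMT lay above CKMT2 and CKMT2 above SLC6A8 every time. CKB lay above GAMT in replicates 1 and 2 and below it in replicate 3. In DMEM plus fatty acids the order was the same, from CKM at 478 ± 77.9 to CKMT1A at 0.422 ± 0.106. There the range of CKB (122 ± 26.9) overlapped that of GAMT (101 ± 13.6), although CKB lay above GAMT within each library. The other neighbours did not overlap. Both cultures thus held CKM as the leading kinase transcript and GATM as the scarcest of the genes outside the CKMT1 pair.

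Genes around the pathway were read from 5 lists. Over all 16107 tested genes 1.36% passed (0.292% upward and 1.07% downward), 8219 fitted higher and the median log2 fold change was 0.01. Of the adenine nucleotide carriers, the phosphate carrier and the outer membrane channels, which pass ATP, ADP and phosphate to and from mitochondrial creatine kinase, 0 of 7 tested passed, 6 of 7 fitted higher and the median log2 fold change was 0.15. The smallest p was that of SLC25A6, an adenine nucleotide carrier, at 574, 548.5 and 586.5 CPM in RPMI plus B27 and 803, 874 and 668 CPM in DMEM plus fatty acids (log2 fold change 0.46 ± 0.14, adjusted p 0.172 by edgeR's quasi-likelihood test). The media did not overlap for this carrier. Of 6 M-band genes 0 passed, with a median of -0.28. FHL2, a LIM protein that links metabolic enzymes to titin, had the smallest p there, at 642, 261 and 226 CPM against 145, 149 and 171 CPM (log2 fold change -1.28 ± 0.38, adjusted p 0.157 by edgeR's quasi-likelihood test). The media did not overlap for FHL2, and RPMI plus B27 replicate 1 was its highest library. Without that library its log2 fold change was smaller, at -0.65 ± 0.13 (adjusted p 0.111 by edgeR's quasi-likelihood test).

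Of 10 tested genes of the methyl donor cycle, which supplies the methyl group that GAMT uses, 2 passed and both fell, with a list median of 0.03. MAT1A, the liver-type synthase of S-adenosylmethionine, measured 5.35, 4.17 and 3.10 CPM in RPMI plus B27 and 0.818, 1.27 and 1.25 CPM in DMEM plus fatty acids (log2 fold change -1.91 ± 0.33, adjusted p 0.0469 by edgeR's quasi-likelihood test). NNMT, which spends the methyl group on nicotinamide, had 101, 30 and 27 counts in RPMI plus B27 and 0, 3 and 0 in DMEM plus fatty acids (adjusted p 0.0492). Both genes were low throughout, and each lost its call in every fit that left out 1 library, where 3 to 131 of all tested genes passed. MAT2A, the widely expressed synthase, which lies outside the naming rule and was chosen after its values were seen, had 150 ± 8.59 and 155 ± 30.3 CPM.

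Of 10 tested genes that supply arginine, ornithine and glycine, 1 passed, SHMT2, which makes glycine in mitochondria and rose (log2 fold change 1.27 ± 0.21, adjusted p 0.0427 by edgeR's quasi-likelihood test), with a list median of 0.14. Of 5 tested transporters related to SLC6A8 or known to move creatine, 1 passed, the glycine transporter SLC6A9, which rose (2.62 ± 0.39, adjusted p 0.0397 by edgeR's quasi-likelihood test), with a list median of 0.41. Both calls were lost whichever of the 6 libraries was omitted, in fits where 3 to 131 of all tested genes passed. SLC16A12, a transporter through which creatine can leave cells, was named after its values were seen and measured 58.0, 32.5 and 55.5 CPM against 42.5, 17.8 and 18.2 CPM (log2 fold change -0.90 ± 0.39, adjusted p 0.284 by edgeR's quasi-likelihood test). Its libraries overlapped between media.

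**Figure D4:**
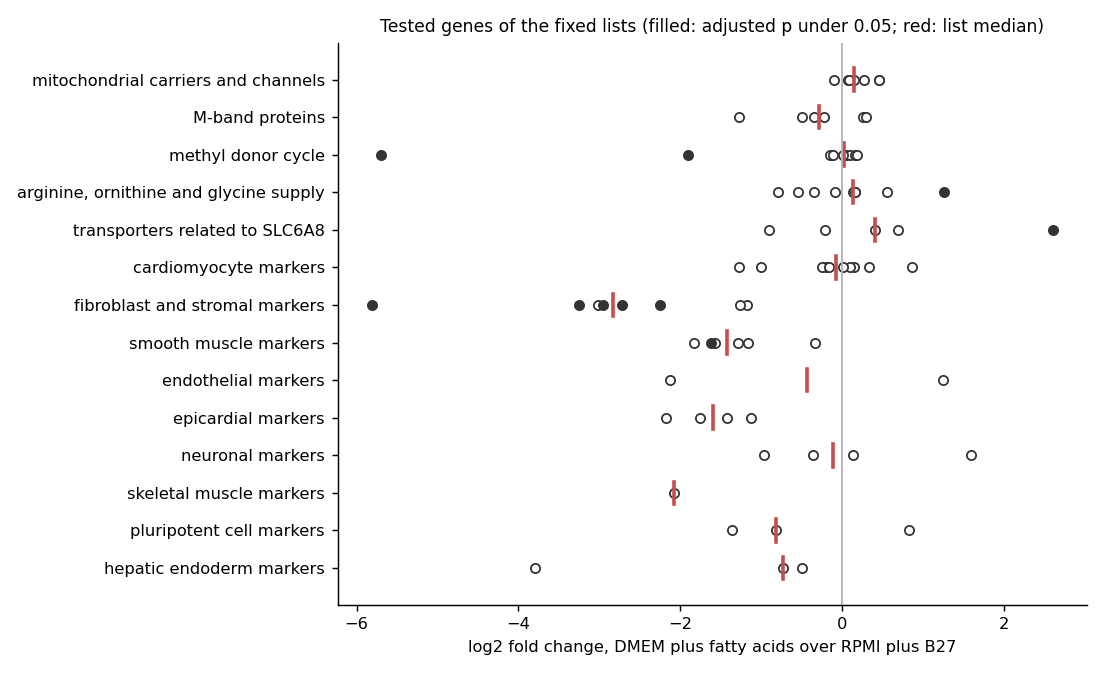
log2 fold change (x axis, positive where DMEM plus fatty acids is higher) of each tested gene of the 5 pathway lists and 9 marker lists (rows), filled where the adjusted p is under 0.05, with the list median as a red bar. Fibroblast and stromal markers have the lowest median among lists with more than 1 tested gene, at -2.84.

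For each of the 8 genes, the 2 most similar profiles were sought among 10022 other genes whose mean level reached 10 CPM. Likeness was the root-mean-square difference of log2 CPM over the 6 libraries after centring each gene on its mean. CKM was nearest to PARP3 and NAPB (0.08 each), GATM to PMEPA1 (0.15) and CSRNP1 (0.18), and SLC6A8 to ZSWIM4 (0.04) and AMPD2 (0.07). CKMT1A and CKMT1B shared the same 2 neighbours, HPCAL1 (0.11 and 0.10) and NAAA (0.16 and 0.20). CKB was nearest to DOCK4 (0.08) and KCNJ12 (0.09), CKMT2 to SNRPG (0.08) and FAM174A (0.09), and GAMT to DTD1 (0.03) and MMP24OS (0.04). These are descriptions of 6 libraries.

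When libraries were scaled so that the geometric mean of the 10 cardiomyocyte markers was equal, a setting chosen after the data were seen, the log2 fold change was 0.83 ± 0.23 for CKM (adjusted p 0.0980 by edgeR's quasi-likelihood test), -1.33 ± 0.34 for GATM (0.0688) and -0.53 ± 0.25 for SLC6A8 (0.427). Under it 0 of the 8 genes and 1.88% of all genes passed. The setting moved the median change over all tested genes from 0.01 to 0.18 on the log2 scale, and total count scaling moved it to 0.12, so values under these settings are to be read against those medians.

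**Figure D5:**
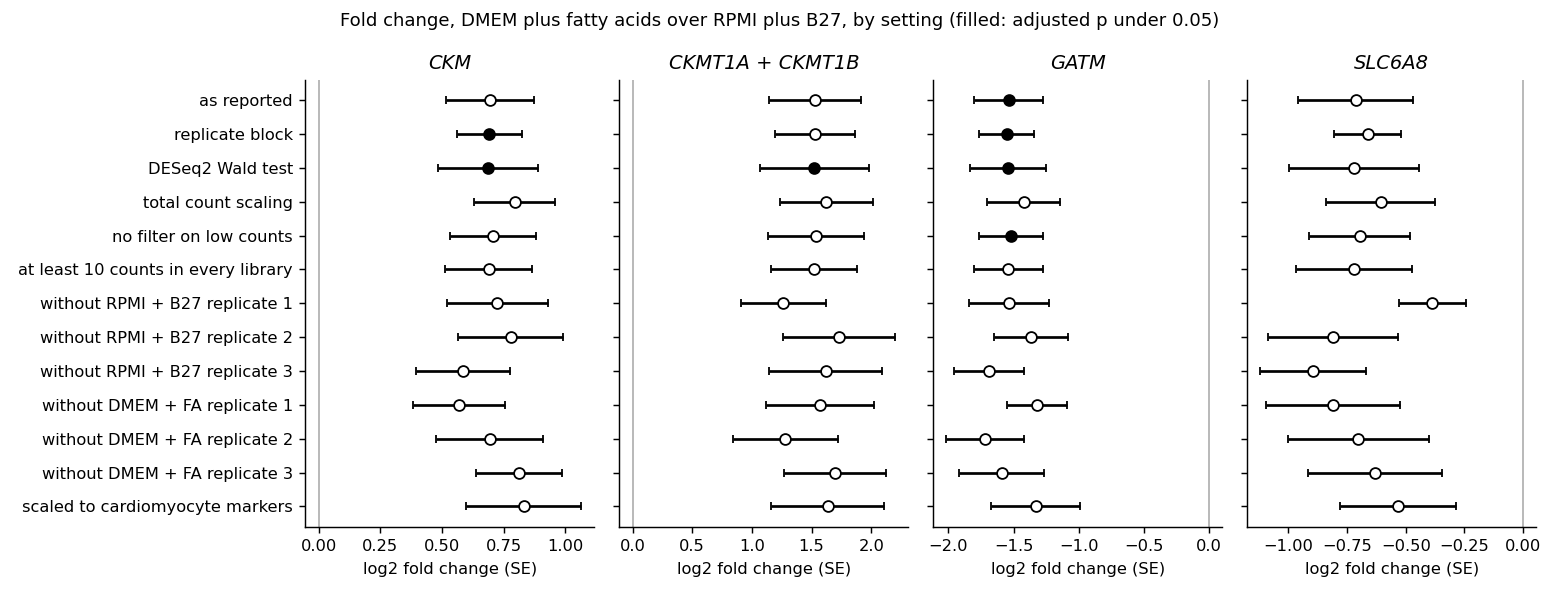
log2 fold change with SE (x axes, positive where DMEM plus fatty acids is higher) of CKM, the summed CKMT1 pair, GATM and SLC6A8 under each setting (rows), filled where the adjusted p is under 0.05. Directions hold in every row, and GATM is filled in 4 of 13 rows.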

How the data were processed

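Per the submitters' processing notes, reads were handled with STAR and HTSeq on hg38. Versions, gene annotation and strand setting were not given in the sources used here. The RNA kit preserves strand, per the labels' protocols. The authors deposited whole-number counts for gene symbols, not normalized. Gene rows held 84.4% to 87.2% of each file. Rows that name no gene were left out, among them reads without a unique alignment (3.05% to 4.10%).

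Groups and replicate numbers came from the titles. The quasi-likelihood fit used edgeR 4.0.16 under R 4.3.3 (filterByExpr with minimum count 10 and total 15, TMM, quasi-likelihood, Benjamini-Hochberg), over 16107 genes and without covariates. SEs and 95% intervals derive from the F statistic. The p-values measure the spread between these biological replicates only. DESeq2 1.42.0 was an alternative. Deviations from the medium means correlated at 0.31, 0.43 and 0.37 for equal replicate numbers and at -0.24 to -0.14 for others. Deviations within a medium sum to 0, so the values for other numbers are not independent of those for equal numbers. Equal numbers were taken as pairs only in the blocked fit and the sign-flip tests, and the reported fit ignores them. What a number stands for is not in the labels. Shares used raw counts and exact permutation tests (scipy 1.17.1). Intervals of shares are Wilson intervals and, like the floor of 3 counts, cover counting error only. Lengths, windows and coding differences came from the longest principal transcripts of GENCODE v29, whose assembly (GRCh38) is that of the notes. Upstream sequences came from RefSeq, which had entries for 7 of the 8 genes.

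The 8 genes, the 5 pathway lists, the 9 marker lists and the tests were chosen with earlier results of these data known. Besides the 8 genes, the text names each list's called genes (at most 4, or else the smallest p) and the 2 nearest profiles.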

Additional observations from a re-analysis of the deposited data

How the results depend on the processing

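Of the 8 genes, 1 passed as reported, 2 with the replicate block (GATM, CKM), 3 by the DESeq2 Wald test (GATM, CKM, CKMT1B), and 0 under total count scaling, with at least 10 counts in every library, scaled to cardiomyocyte markers, and in each fit that left out 1 library (range 0 to 0). Counting all genes, 219 passed as reported, 770 with the block, 1218 by DESeq2, 539 with no filter, 119 with at least 10 counts in every library and 3 to 131 without 1 library. Of 38 tested pathway genes, 4 passed as reported, 2 under total count scaling and 0 to 0 without 1 library. With at least 10 counts in every library 1 of 36 passed. The counts over all tested genes were 219 of 16107 as reported, 202 of 16107 under total count scaling and 119 of 14501 with at least 10 counts. The summed CKMT1 pair had log2 fold changes of 1.26 to 1.73 without 1 library and passed by DESeq2 (1.52, adjusted p 0.0151). Over their alternatives, adjusted p ran from 0.0133 to 0.272 for CKM and from 1.03e-05 to 0.134 for GATM. CKMT2 changed sign to -0.0064 by DESeq2, -0.0034 with at least 10 counts in every library, -0.08 and -0.13 without RPMI plus B27 replicates 1 and 3, and -0.04 without DMEM plus fatty acids replicates 1 and 2 each. GAMT changed sign to -0.14 without RPMI plus B27 replicate 1 and to -0.05 and -0.01 without DMEM plus fatty acids replicates 2 and 3. As reported, the log2 fold changes were 0.0009 ± 0.19 for CKMT2 and 0.02 ± 0.19 for GAMT. Each value with a changed sign was smaller in size than its SE. In the fits without 1 library CKMT2 ranged from -0.13 to 0.24 and GAMT from -0.14 to 0.17. The replicate block and division by coding length cannot reverse the shares, since complete pairs give the same mean difference and the shares did not overlap, so neither bears on their stability. The summed kinase difference was 402 CPM under total count scaling. The GATM share difference was -11.6 points per coding length, the CKMT2 share difference -0.50 points with CKMT1A alone beside it, and the mitochondrial share difference -5.58 points without CKB. Without 1 library the differences were 2.58 to 7.15 points (CKM share), -1.64 to -1.20 (CKMT2 share), -4.96 to -2.75 (mitochondrial share), -21.2 to -14.5 (GATM share) and 270 to 411 CPM (summed kinases). The block changed the call of CKM and of no other of the 8 genes. Where a fit left out 1 library, that medium had 2 libraries.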
